A study of Mus musculus with 4 samples.

Results

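Glucose is taken into a cell by facilitative transporters, trapped by hexokinase and split through glycolysis into pyruvate. Pyruvate can be reduced to lactate and exported, or oxidised inside the mitochondria by the pyruvate dehydrogenase complex. The pentose phosphate pathway branches off at the hexokinase product and yields NADPH and ribose. Macrophages and microglia exposed to LPS, the bacterial endotoxin that TLR4 senses, are known for high glycolytic flux and lactate release. The 33 genes described here encode this route: glucose uptake and trapping (4 genes), the upper (8) and lower (6) steps of glycolysis, lactate formation and transport (4), pyruvate dehydrogenase and its kinase (4) and the pentose phosphate pathway (7). They were matched by gene symbol to the deposited FPKM table of 24473 genes, where all 33 were found. Aldoa stood on 2 rows, and the second of them, with 49 to 86 counts per library, is kept apart below.

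The RNA came from 4 libraries of the immortalised mouse microglia BV-2, each treated with LPS at 100 ng/mL for 24 h. In 2 of them SIX2, a homeobox transcription factor, was knocked down (titled sh s1 and sh s2), and the other 2 were controls labelled WT but titled sh c1 and sh c2, and the labels do not say what the control cells carry. The labels give neither the number of hairpins or clones nor whether replicates were separate cultures, so p-values measure the spread between these libraries only, which may be technical. These are bulk samples, in which fewer cells of a type and less RNA per cell cannot be told apart. The series concerns SIX2 in the alternative activation of microglia, and the comparison open to these genes is knockdown against control, both under LPS.

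The deposited counts summed to 74712717 and 64265336 in the knockdown libraries and to 75672836 and 60956299 in the control libraries. Six2 itself had 0 counts in all 4 libraries, where a count of 0 allows up to 12 counts (counting error only, and assuming about 4 counts per fragment), so the knockdown could not be checked on it. Of 12 microglia and macrophage markers, 10 had at least 10 CPM in every library (Aif1 and Cx3cr1 did not), with a summed level of 2221 and 2162 CPM in knockdown and 2367 and 2426 CPM in control libraries. The astrocyte, neuron, oligodendrocyte and fibroblast marker lists had no gene at that level, and of 4 endothelial markers only Kdr reached it.

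Of the 33 genes, 30 lay between 0.842-fold and 1.21-fold in knockdown over control libraries. The others were Slc16a1, which was higher, Ldhb, which was close to the limit of detection, and Gapdh, whose own row was not resolved. Of the 33, all tested with edgeR's quasi-likelihood test on the counts, 1 passed a Benjamini-Hochberg adjusted p of 0.05, against 0.953% of all 15733 genes tested (150 genes, 0.407% higher and 0.547% lower in knockdown libraries). It was Slc16a1, which encodes the monocarboxylate transporter MCT1, and it rose. At an unadjusted p of 0.05, Slc16a1 and Pdha1 lay higher and Taldo1 lower, against 7.52% of all genes higher and 6.70% lower. Ldhb also lay under that threshold, but it entered the test only through its counts in the control libraries, so its p is no evidence. The knockdown and control libraries did not overlap for 12 members, 3 higher and 9 lower (Ldhb among the lower ones), beside 47.6% of all genes (23.8% in each direction). Fitted changes were below 0 for 22 of 33 members (66.7%) and for 51.1% of all genes, and for 20 to 25 members in the other fits. Without Gapdh and Ldhb they were below 0 for 20 of 31 (64.5%). The median log2 fold change of the 33 members was -0.06, beside -0.01 over all genes.

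**Figure D1:**
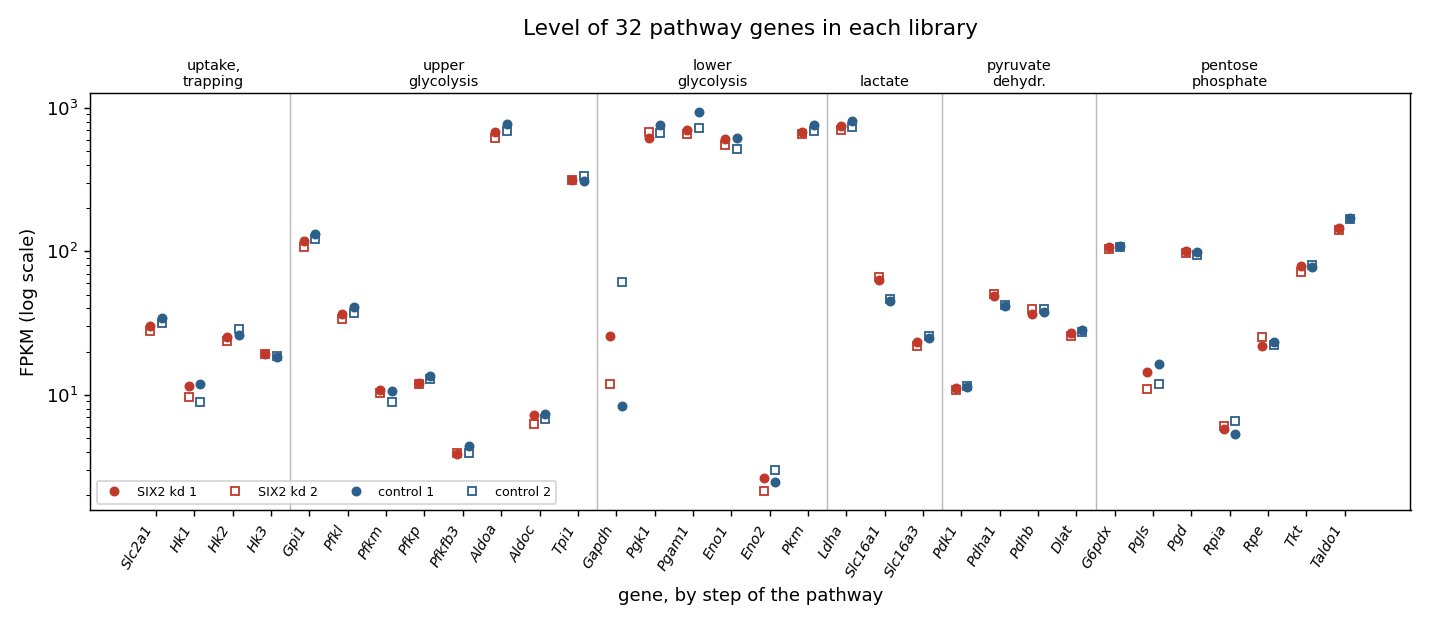
FPKM of 32 of the 33 genes in each library on a log axis, grouped by step, with SIX2 knockdown in red at the left of each gene and control in blue at the right; replicate 1 is filled and replicate 2 open. Ldhb, at 0 in both knockdown libraries, is left out. The libraries lie close together for nearly every gene except Gapdh, whose points spread from 8.36 to 61.5 FPKM.

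**Figure D2:**
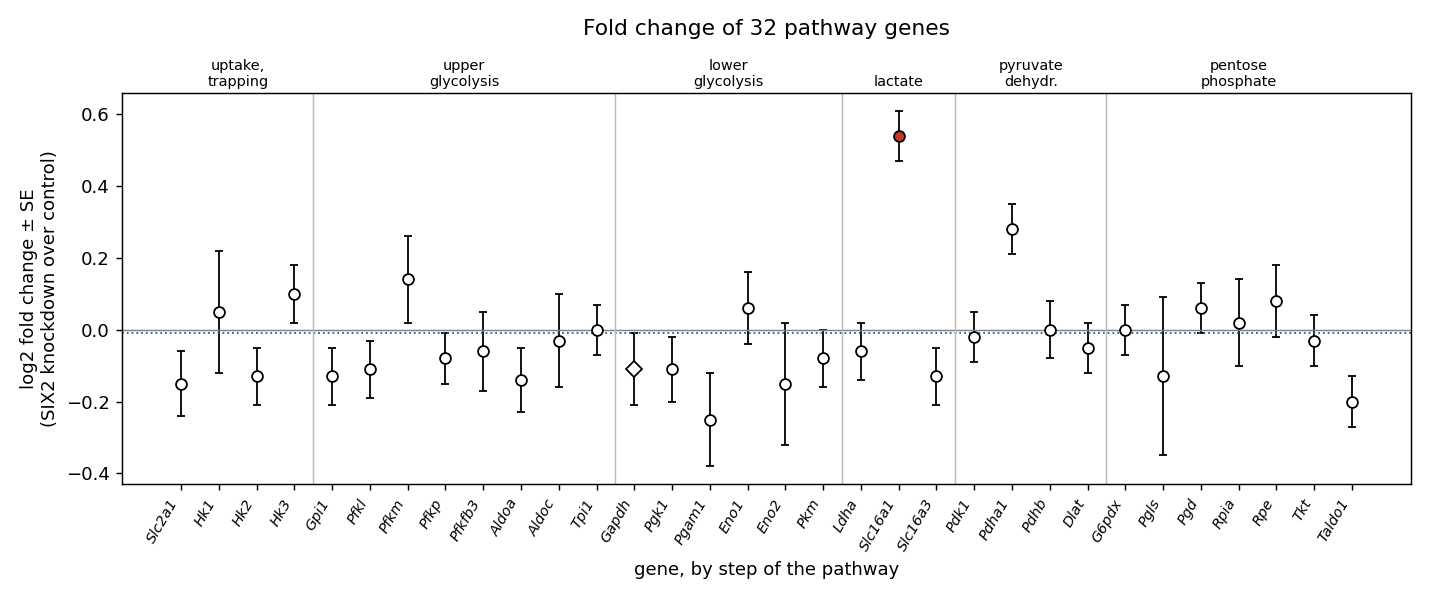
Log2 fold change, SIX2 knockdown over control, with a standard error derived from the edgeR F statistic, for the same genes. The red point is the gene with an adjusted p under 0.05 (Slc16a1, 0.54), white points did not pass, the Gapdh diamond is the value with its copies summed, and the dotted line is the median of all genes tested (-0.01).

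The gene that passed lies at the exit of the route. MCT1 carries lactate, pyruvate and ketone bodies together with a proton across the plasma membrane. Slc16a1 (ENSMUSG00000032902, chromosome 3, 104638668 to 104658462, plus strand, GRCm38) had 63.5 and 66.7 FPKM in the knockdown libraries, against 44.9 and 46.5 FPKM in the control libraries. Both knockdown libraries lay above both controls. Its log2 fold change was 0.54 ± 0.07 (SE), or 1.46-fold (adjusted p = 0.0241, edgeR with Benjamini-Hochberg adjustment). The direction was the same in all 17 other fits, with log2 fold changes of 0.50 to 0.58 and adjusted p from 5.13e-10 to 0.167. The call was lost in 8 of the 17, among them each of the 4 fits that left out a library (adjusted p = 0.0655 and 0.148 without knockdown replicate 1 and 2, 0.115 and 0.118 without control replicate 1 and 2), the fit without edgeR's robust option (0.0716) and limma on FPKM values (0.156 and 0.167). The gene models Gm43581 and Gm43585, which overlap Slc16a1 on the same strand, had 0 counts in all 4 libraries.

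The other lactate transporter among the 33 did not pass. Slc16a3 encodes MCT4, the exporter typical of highly glycolytic cells. It had 23.5 and 21.8 FPKM in knockdown libraries, against 24.8 and 25.9 FPKM in control libraries (log2 fold change -0.13 ± 0.08, SE, adjusted p = 0.509 by edgeR, and -0.18 to -0.08 with 1 library left out). Of the summed FPKM of both transporters, Slc16a1 held 73.0% and 75.4% in knockdown libraries and 64.4% and 64.3% in control libraries. The share was 9.85 percentage points larger in knockdown libraries and did not overlap (exact two-sided permutation p = 0.333, the smallest that 2 against 2 allows). Bsg, basigin, the chaperone that brings MCT1 and MCT4 to the membrane, had 177 and 225 FPKM in knockdown and 172 and 167 FPKM in control libraries (log2 fold change 0.28 ± 0.12, SE, adjusted p = 0.370 by edgeR). Without knockdown replicate 2 the Bsg value was 0.10, and without knockdown replicate 1 it was 0.44. Embigin, Emb, an alternative partner, had an adjusted p of 0.553 by edgeR and a log2 fold change of 0.12 ± 0.08 (SE; 0.05 without knockdown replicate 2).

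The promoters of both transporters are shown, with that of Ldha, because they hold a motif found in the windows of other glycolysis genes. The windows are from RefSeq (GRCm38.p6), 250 bases before to 50 after the annotated start, read 5′ to 3′ on the plus strand, with ACGTG or its reverse complement CACGT in capitals. ACGTG is a common form of the core of the hypoxia response element bound by HIF, and other forms of that core were not searched or marked. CACGTG, which contains ACGTG on both strands, is the E-box of MYC, USF and carbohydrate-response factors.
Slc16a1, chr3:104638414-104638713: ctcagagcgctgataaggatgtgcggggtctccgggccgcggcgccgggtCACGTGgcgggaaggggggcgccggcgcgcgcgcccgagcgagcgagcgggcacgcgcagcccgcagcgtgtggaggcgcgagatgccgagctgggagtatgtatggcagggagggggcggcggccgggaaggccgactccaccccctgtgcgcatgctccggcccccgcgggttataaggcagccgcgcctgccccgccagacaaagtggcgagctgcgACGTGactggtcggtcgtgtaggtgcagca
Slc16a3, chr11:120948817-120949116: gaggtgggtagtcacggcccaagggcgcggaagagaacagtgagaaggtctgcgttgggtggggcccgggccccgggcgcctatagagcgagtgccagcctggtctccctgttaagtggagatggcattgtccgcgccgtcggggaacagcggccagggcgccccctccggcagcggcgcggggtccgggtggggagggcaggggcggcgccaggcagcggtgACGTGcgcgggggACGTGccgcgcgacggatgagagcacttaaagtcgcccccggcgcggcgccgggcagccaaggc
Ldha, chr7:46845554-46845853: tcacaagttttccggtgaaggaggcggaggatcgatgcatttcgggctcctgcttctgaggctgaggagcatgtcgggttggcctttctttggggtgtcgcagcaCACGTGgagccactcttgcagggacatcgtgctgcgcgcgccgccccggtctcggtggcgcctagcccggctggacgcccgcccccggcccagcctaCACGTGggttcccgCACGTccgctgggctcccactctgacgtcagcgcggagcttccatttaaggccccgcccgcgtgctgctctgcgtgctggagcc
The Slc16a1 window held 1 CACGTG, starting 200 bases before the start site, and an ACGTG 21 bases into the transcript. The Slc16a3 window held 2 ACGTG, 27 and 14 bases before the start, and no CACGTG. Of the 2 Ldha windows, the one shown, on the plus strand, held 2 CACGTG and the other held none. Over the 33 members, 17 (51.5%) had ACGTG on either strand in at least 1 window, against 29.2% of 10418 tested genes with a window and 21.8% of all 27025 genes. CACGTG was found for 4 members (12.1%; Ldha, Pfkfb3, Pfkm and Slc16a1), 11.8% of tested genes and 8.09% of all genes. The median GC content of the windows was 61% for members and 60.3% for tested genes. A match in these windows is a description of letters, and no binding was measured.

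Lactate itself is made by lactate dehydrogenase, whose A subunit favours the reduction of pyruvate and whose B subunit favours the reverse. Ldha (chromosome 7, 46841475 to 46855627, plus strand), the most abundant gene of the lactate group, had 746 and 697 FPKM in knockdown libraries, against 805 and 736 FPKM in control libraries. These ranges overlapped (log2 fold change -0.06 ± 0.08, SE). Ldhb had 0 counts in both knockdown libraries and 23 counts in each control library. The mean of the control libraries was 1.92-fold the floor of 12 counts per knockdown library. At about 5.8 fragments that mean has its own counting error, which the ratio leaves out, so no minimum fold can be given. Ldhb made up at most 0.0284% of lactate dehydrogenase FPKM in any library. Trace transcripts of some other cell types moved the same way. The 5 neuron markers summed to 3.19 and 0 CPM in knockdown libraries and 6.14 and 5.63 CPM in control libraries. The 5 oligodendrocyte markers summed to 8.48 and 0.316 CPM in knockdown and 15.2 and 14.3 CPM in control libraries. The 5 astrocyte markers summed to 2.34 and 0.711 CPM in knockdown and 5.13 and 4.08 CPM in control libraries. The 4 fibroblast markers summed to 0.338 and 0.0632 CPM in knockdown and 0.551 and 0.582 CPM in control libraries. The 4 endothelial markers summed to 229 and 217 CPM in knockdown and 220 and 223 CPM in control libraries. Of these 4, 3 were under 1 CPM in every library, so the sum is almost all Kdr and does not show how trace endothelial transcripts moved. The part of trace transcripts in the Ldhb values was not tested.

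**Figure D3:**
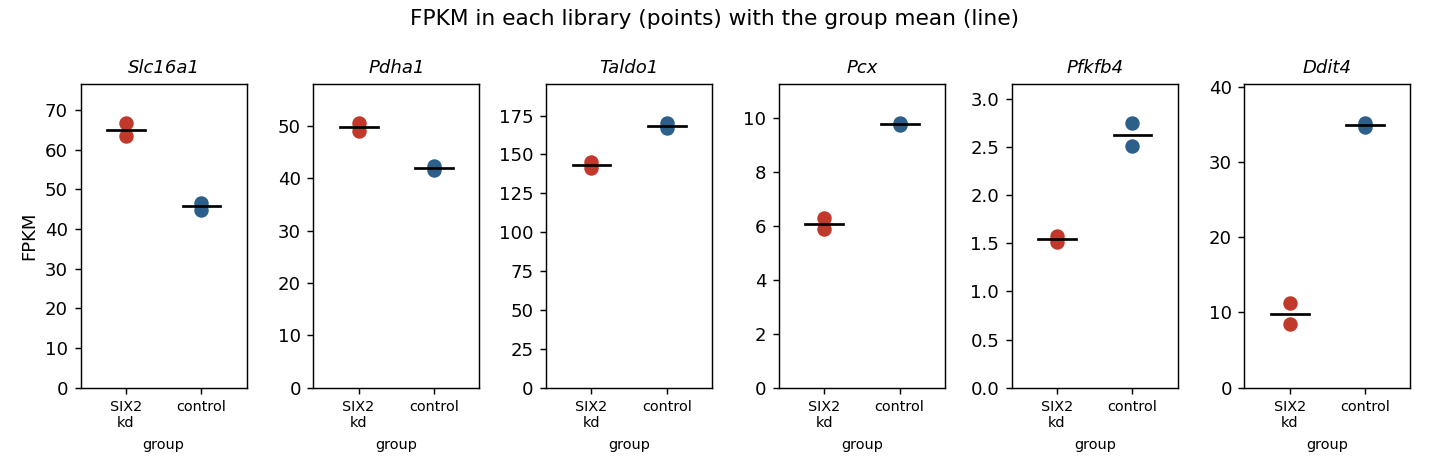
FPKM of 6 genes in each library (points) with the group mean (line), SIX2 knockdown in red at the left and control in blue at the right, each axis starting at 0. Slc16a1 and Pdha1 lie higher in knockdown libraries, while Taldo1, Pcx, Pfkfb4 and Ddit4 lie lower. All 6 have an unadjusted p under 0.05 by edgeR, and Slc16a1, Pcx and Ddit4 passed the adjusted threshold. The groups overlap for none of the 6, and on CPM they did not overlap for 47.6% of all genes tested.

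Pyruvate that is not turned into lactate can be oxidised inside the mitochondria by the pyruvate dehydrogenase complex. Pdha1, its X-linked catalytic E1 alpha subunit (chromosome X, 160122209 to 160138413, minus strand), had 49.1 and 50.5 FPKM in knockdown libraries, against 41.6 and 42.3 FPKM in control libraries. The groups did not overlap and the log2 fold change was 0.28 ± 0.07 (SE, 1.21-fold), but it missed the threshold (adjusted p = 0.144 by edgeR). Map3k15, which overlaps Pdha1 on the opposite strand, had 45.8 and 46.6 CPM in knockdown and 52.8 and 50.1 CPM in control libraries. No source used here says whether counting used the strand, so reads from the overlap of these 2 genes cannot be told apart. The partner subunits differed by less. Pdhb, the E1 beta subunit, averaged 37.9 ± 2.15 FPKM in knockdown and 38.9 ± 1.44 FPKM in control libraries (SD, n = 2 each), and Dlat, the E2 core, 26.4 ± 0.601 FPKM in knockdown and 28.0 ± 0.509 FPKM in control libraries. Pdk1, the kinase that switches the complex off, had 11.2 and 10.9 FPKM in knockdown and 11.4 and 11.5 FPKM in control libraries. None of these 3 passed.

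In the pentose phosphate pathway the oxidative enzymes stayed within the replicate spread. G6pdx, the entry enzyme, had 107 and 104 FPKM in knockdown and 108 and 107 FPKM in control libraries, and Pgd 99.9 and 96.9 FPKM in knockdown and 99.1 and 94.7 FPKM in control libraries. Taldo1, transaldolase of the non-oxidative branch (chromosome 7, 141392199 to 141402968, plus strand) and the most abundant gene of the group, had 145 and 141 FPKM in knockdown libraries, against 170 and 167 FPKM in control libraries. It lay lower in both knockdown libraries, by a log2 fold change of -0.20 ± 0.07 (SE), and missed the threshold (adjusted p = 0.237 by edgeR). Transketolase, Tkt, which works beside it, averaged 75.5 ± 5.44 FPKM in knockdown and 78.8 ± 1.28 FPKM in control libraries (SD, n = 2 each). Pgls, the lactonase between G6pdx and Pgd, differed 1.32-fold between knockdown replicates and 1.38-fold between control replicates, more than the 0.917-fold between groups. Rpia and Rpe, the pentose isomerase and epimerase, lay between 5.38 and 6.58 FPKM and between 22.0 and 25.4 FPKM over all 4 libraries.

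At the top of glycolysis, Slc2a1, the glucose transporter GLUT1 (chromosome 4, 119108711 to 119137983, plus strand), had 30.1 and 27.9 FPKM in knockdown libraries, against 34.4 and 31.6 FPKM in control libraries. Both knockdown values were below both controls, and the gene did not pass (log2 fold change -0.15 ± 0.09, SE, adjusted p = 0.493 by edgeR). With 1 library left out its value ran from -0.22 (without control replicate 2) to -0.08 (without control replicate 1). All 3 hexokinases were present. Of their summed FPKM, Hk2, the inducible form, held 44.8% and 45.0% in knockdown libraries and 46.3% and 50.9% in control libraries. Hk3, typical of myeloid cells, held 34.5% and 36.7% in knockdown and 32.5% and 33.1% in control libraries, and Hk1, the broadly expressed form, held the remaining 16.0% to 21.1%. The Hk2 and Hk3 shares did not overlap between groups, at differences of -3.72 and 2.79 percentage points, and the exact two-sided permutation p was again 0.333 for each. The Hk2 difference was -1.42 without control replicate 2 and -6.02 without control replicate 1, and the Hk3 difference was 1.70 without knockdown replicate 2.

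**Figure D4:**
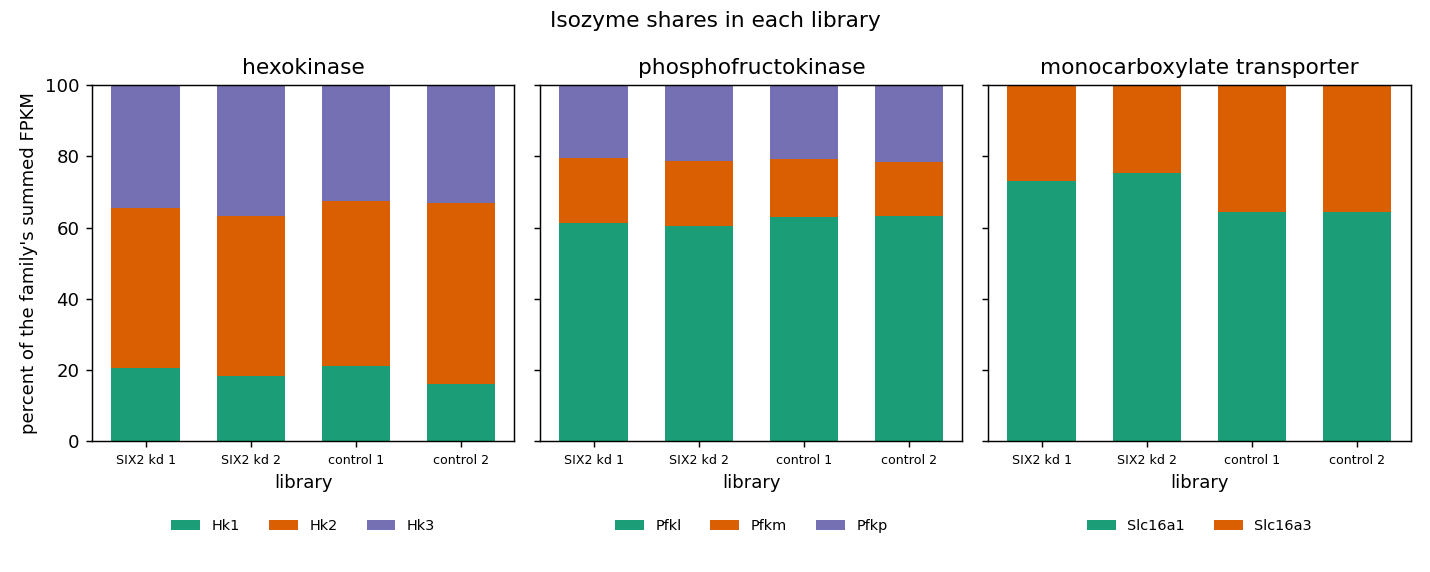
Share of each isozyme in the summed FPKM of its family, one stacked bar per library, for the hexokinases, the phosphofructokinases and the lactate transporters, with the knockdown libraries left of the controls. Slc16a1 takes 73.0% and 75.4% of the transporter bar in knockdown and 64.4% and 64.3% in control libraries; Hk2 takes 44.8% to 50.9% of the hexokinase bar and Pfkl 60.4% to 63.2% of the phosphofructokinase bar over the 4 libraries.

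The committing step showed a similar mixture. Pfkl, the liver-type phosphofructokinase subunit, held 61.4% and 60.4% of the family's FPKM in knockdown and 62.9% and 63.2% in control libraries, while Pfkm, the muscle type, held 18.2% in each knockdown library and 16.4% and 15.1% in control libraries. Pfkp, the platelet type, held the remaining 20.4% to 21.7%. Computed from CPM, which is not scaled for length, the Pfkm difference was 1.19 instead of 2.46 percentage points and the Pfkl difference -1.14 instead of -2.14. Pfkfb3, which makes the allosteric activator of phosphofructokinase, was low and lay between 3.88 and 4.38 FPKM in all libraries. Aldoa (chromosome 7, 126795234 to 126800751, minus strand), aldolase and the most abundant gene of the upper steps, had 677 and 617 FPKM in knockdown libraries, against 768 and 690 FPKM in control libraries (log2 fold change -0.14 ± 0.09, SE). Its libraries overlapped after scaling, and its value was -0.05 without control replicate 1, -0.07 without knockdown replicate 2 and -0.22 without control replicate 2. Gpi1, the isomerase after hexokinase, averaged 113 ± 7.50 FPKM in knockdown and 126 ± 6.58 FPKM in control libraries (SD, n = 2 each), and Tpi1, triosephosphate isomerase, 315 ± 0.543 FPKM in knockdown and 322 ± 16.2 FPKM in control libraries. Aldoc, the brain-enriched aldolase, held at most 1.05% of aldolase FPKM in any library.

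The lower steps, which turn triose phosphate into pyruvate and return ATP, held the most abundant members. By mean FPKM, Pgam1 ranked 59 among all genes, Pkm 69, Pgk1 76 and Eno1 85, beside Ldha at 60 and Aldoa at 71. On their own rows, the 33 members together made up 1.43% and 1.35% of all FPKM in knockdown libraries and 1.62% and 1.42% in control libraries. Most counts on Gapdh and its near-identical copies, described below, fell outside these rows. Pgam1, phosphoglycerate mutase (chromosome 19, 41911923 to 41918660, plus strand), had 703 and 661 FPKM in knockdown libraries, against 936 and 722 FPKM in control libraries. Control replicate 1 stood apart, the log2 fold change was -0.25 ± 0.13 (SE, adjusted p = 0.488 by edgeR), and the value was -0.04 without that library and -0.43 without control replicate 2. Pkm, pyruvate kinase, averaged 667 ± 13.9 FPKM in knockdown and 722 ± 43.9 FPKM in control libraries (SD, n = 2 each), summed over its splice forms, which the table does not separate. Pgk1 averaged 647 ± 41.9 FPKM in knockdown and 714 ± 65.9 FPKM in control libraries, and Eno1 578 ± 36.3 FPKM in knockdown and 566 ± 66.2 FPKM in control libraries. Eno2, the neuronal enolase, held 0.387% to 0.573% of enolase FPKM.

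Gapdh, the enzyme that links the upper and lower steps and a common reference gene, did not behave like its neighbours on the route. It had 25.9 and 11.9 FPKM in knockdown libraries, against 8.36 and 61.5 FPKM in control libraries. The controls differed 7.36-fold from each other, where the control replicates of the other 32 members differed by at most 1.38-fold. Gapdh ranked 2074 by mean FPKM while Pgk1, the next enzyme, ranked 76. It lies on chromosome 6 (125161715 to 125165773, minus strand), within 406 kb of Eno2 and Tpi1. The mouse genome holds many processed copies nearly identical to Gapdh.

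Gene models that matched a member's longest coding transcript at 90% identity or more over at least 300 bases, in GENCODE M21, were summed with it, a step chosen after the values were seen. Gapdh had 168 such copies, of which 135 had counts. Copies held 96.4% and 98.1% of the counts on Gapdh and its copies in knockdown libraries and 98.9% and 91.4% in control libraries. The sum was 3358 and 2868 CPM in knockdown libraries, against 3470 and 3251 CPM in control libraries. Summed, Gapdh stood beside Eno1 and Pkm in CPM and its log2 fold change was -0.11 ± 0.10 (SE, adjusted p = 0.673 by edgeR), where the Gapdh row alone gave -0.85 ± 1.38. Which copy took the counts varied from library to library. Gm7336, on chromosome 7 and 99.8% identical over 1232 bases, had 771 and 386 CPM in knockdown and 2024 and 703 CPM in control libraries. Gm5559, on chromosome 5 and 99.9% identical over 1002 bases, had 824 and 1306 CPM in knockdown and 437 and 607 CPM in control libraries. Of the 116 copy models of all members that were tested, 3 passed the adjusted threshold (Gm12671, Gm14760 and Gm10359), beside 0.953% of all genes, all matching Gapdh at 99.9% or more and all higher in knockdown libraries. Their CPM were close to each other, at 97.7, 95.1 and 91.5 in knockdown replicate 1 and 39.8, 42.3 and 36.1 in control replicate 1. Whether they are 1 signal shared over 3 models was not tested.

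**Figure D5:**
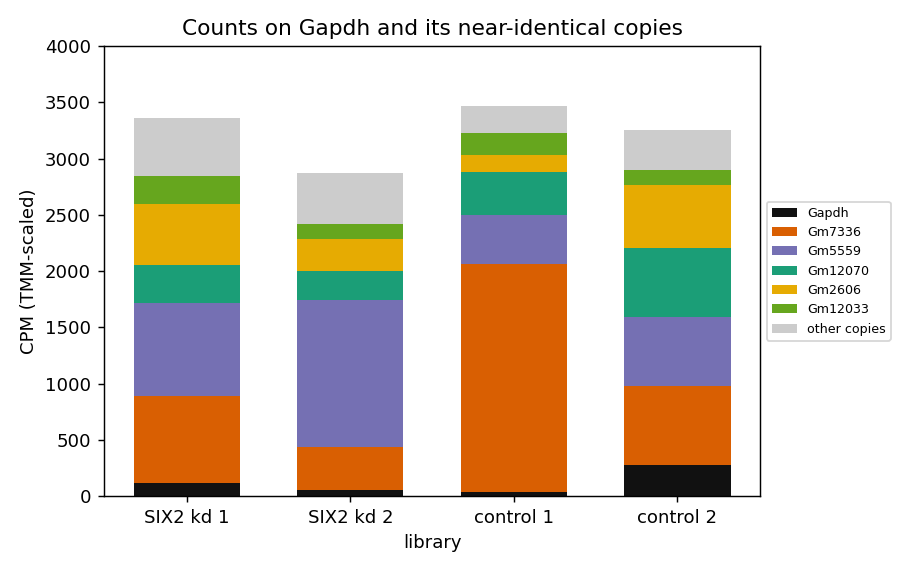
Stacked TMM-scaled CPM on Gapdh (black), its 5 most abundant near-identical copies and the other copies in each library, knockdown left of control. The Gapdh segment is a small part of every bar, the segments change size between libraries of the same group, and the full bars stand between 2868 and 3470 CPM.

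Copies bore on few other members. In all, 14 of the 33 had at least 1 copy model, and in 10 of these the copies held under 5% in every library. For Eno1 the copies held 6.92% and 13.4% in knockdown and 11.9% and 14.3% in control libraries. Among them, the retrotransposed Eno1b, 99.5% identical over 1736 bases, had 25.3 and 252 CPM in knockdown and 289 and 276 CPM in control libraries, so that knockdown replicate 1 alone was low. With copies summed, Eno1 had 3919 and 3869 CPM in knockdown and 4140 and 3565 CPM in control libraries (log2 fold change 0.02 ± 0.09, SE). Pgam1 copies held 5.61% to 8.29%, and its summed log2 fold change stayed at -0.25. For Ldhb the copy held 14.8% in control replicate 1, which was 4 counts beside 23 on Ldhb itself. Slc16a1 had no copy by this measure.

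The same pathways hold genes beyond the 33. In a list of 50 isozymes, regulators of flux and neighbouring steps, 38 were tested, 1 passed and fell, and 37 did not pass, beside 0.953% of all genes passing. At an unadjusted p of 0.05, 4 lay higher and 5 lower, beside 7.52% and 6.70% of all genes. The gene that fell was Pcx, pyruvate carboxylase, which makes oxaloacetate from pyruvate in the mitochondria (chromosome 19, 4510472 to 4621752, plus strand). It had 6.28 and 5.87 FPKM in knockdown libraries, against 9.80 and 9.75 FPKM in control libraries. Its log2 fold change was -0.65 ± 0.10 (SE, adjusted p = 0.0423 by edgeR), and the call was lost in 9 of 17 other fits, among them each fit that left out a library (adjusted p = 0.0940 and 0.210 without knockdown replicate 1 and 2, 0.157 and 0.181 without control replicate 1 and 2).

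Pfkfb4, a bifunctional relative of Pfkfb3, had 1.58 and 1.51 FPKM in knockdown libraries, against 2.75 and 2.51 FPKM in control libraries (log2 fold change -0.73 ± 0.15, SE, adjusted p = 0.101 by edgeR). Slc2a6, a glucose transporter family member of myeloid cells, had 19.8 and 17.3 FPKM in knockdown and 24.3 and 25.2 FPKM in control libraries. Galm, the aldose mutarotase, had 7.80 and 6.72 FPKM in knockdown and 5.53 and 4.69 FPKM in control libraries. The others at that unadjusted threshold were Pgp, Pgm2l1 and Mpc2, with higher values in knockdown libraries, and Fbp2 and Slc2a8, with lower ones. Over the tested genes of the list, the median was -0.03 on the log2 scale.

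Known regulators of the route were taken from a list of 28, of which 27 were tested, 1 passed and fell, and 26 did not pass, beside 0.953% of all genes passing. The median log2 fold change of the list was -0.06 and that of all genes -0.01. Ddit4, a stress-induced inhibitor of mTORC1, had 11.3 and 8.42 FPKM in knockdown libraries, against 34.7 and 35.2 FPKM in control libraries (adjusted p = 0.0145 by edgeR). The call was lost in 6 of 17 other fits, among them those without control replicate 1 (0.0518) and 2 (0.0634), without edgeR's robust option (0.0563) and with limma on FPKM values (0.122 and 0.150). Egln3, an oxygen-sensing prolyl hydroxylase that is itself a HIF target, had 16.0 and 14.7 FPKM in knockdown and 22.6 and 21.8 FPKM in control libraries (log2 fold change -0.50 ± 0.09, SE, adjusted p = 0.0712 by edgeR). Hif1a, the oxygen-regulated subunit of HIF, had 30.8 and 28.8 FPKM in knockdown and 34.1 and 30.7 FPKM in control libraries. Txnip and Arrdc4, glucose-responsive arrestins that limit glucose uptake, lay higher without passing: Txnip had 32.9 and 38.2 FPKM in knockdown and 27.7 and 29.6 FPKM in control libraries, and Arrdc4 had 7.16 and 7.37 FPKM in knockdown and 5.91 and 5.72 FPKM in control libraries. Akt2 and Trp53 also had an unadjusted p under 0.05 by edgeR with higher values, and Myc, at 0.205 to 0.818 FPKM, with lower ones. In all, 4 of the 27 tested regulators lay higher and 3 lower at that threshold, beside 7.52% and 6.70% of all genes.

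By the pathway labels in the deposited table, 21 members carried the KEGG label for glycolysis and gluconeogenesis, 13 that for the pentose phosphate pathway, 6 that for pyruvate metabolism and 15 that for HIF-1 signalling. Of all genes tested, 0.407% rose and 0.547% fell. Of 49 tested genes with the glycolysis label, 0 rose and 2 fell, the aldehyde dehydrogenases Aldh2 and Aldh3b1, which are not among the 33. Of 25 tested genes with the pentose phosphate label none passed by edgeR. Of 30 with the pyruvate label, 1 rose (Me1) and 2 fell (Aldh2 and Pcx), and of 88 with the HIF-1 label, 0 rose and 3 fell (Cybb, Igf1 and Nos2), with no member among them. These labels were counted after the values were seen.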

How the data were processed

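RNA sequencing of 4 libraries was analysed. Per the labels' protocols, oligo-dT-selected RNA was made into dUTP-marked libraries and sequenced paired-end. The authors deposited estimated counts for each Ensembl gene, without normalisation and already whole, and FPKM, which the authors scaled for transcript length and depth. The submitters' processing notes name Bowtie 0.12.2 and build mm8; the counting program, its handling of strand and of reads with several matches are not given in the sources used here. Coordinates are the table's own and equalled GENCODE M21 (GRCm38) for 27 of 33 members. They are therefore not on the mm8 build that the notes name. Of low values, 1 to 20, between 42.1% and 47.2% per library were a multiple of 4, so a fragment was assumed to give about 4 counts and 12 counts were taken as the floor of 3 fragments. Another 12 columns match no labelled sample and were not used.

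The test was edgeR 4.0.16 under R 4.3.3 (TMM, filterByExpr, robust quasi-likelihood fit, two-sided F test, no covariate), with Benjamini-Hochberg adjustment over all 15733 genes. CPM are TMM-scaled. Copies were found with BLAST 2.17.0 at 90% identity over 300 bases and at least 50% of the copy's longest transcript. The script was tested on simulated counts. Alternatives were DESeq2 1.42.0, limma 3.58.1 (voom, and log2(FPKM + 1) or log2(FPKM + 0.1)), RLE factors, library totals, other filters, no robust option, counts divided by 4, no pseudogenes, a replicate block and leaving out each library; summing copies was added after the data were seen.

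Members and lists were chosen with earlier results of these data known. Full values are given for members with an unadjusted or adjusted p under 0.05 and for the most abundant member of each step; of the wider list and the regulators, those past either threshold are named. Gapdh, Bsg, Emb, Hif1a, the other members given by value, and the copies were named after their values were seen. Promoters came from RefSeq.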

Additional observations from a re-analysis of the deposited data

How the results depend on the processing

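Of 15733 genes tested, the fit reported called 150 and 1 member (Slc16a1). DESeq2 on the same genes called 801 and 4 members (Slc16a1 with Pdha1, Ldhb and Taldo1, adjusted p = 5.13e-10, 0.00948, 0.0380 and 0.0499). Ldhb entered that fit only through its counts in the control libraries, so its adjusted p is no evidence. limma on either FPKM scale called 3 genes and 0 members, edgeR without the robust option 7 and 0, and an adjusted p under 0.01 left 7 and 0. limma-voom called 65 genes and no filter on low counts 297, each with 1 member. Leaving out 1 library left 41 to 112 genes and 0 members, the lowest and highest over the 4 fits being 0 and 0 members. Same-numbered libraries did not deviate together (r = 0.0486 over 15733 genes), and a replicate block gave 0 genes and 0 members (Slc16a1 adjusted p = 0.0948). Fold changes were recomputed for 52 genes, all members among them. Of these, 39 kept their sign wherever they were tested. The other 13, none of them called, changed sign. With 1 library left out, log2 fold changes ran from -0.13 to 0.01 for Ldha, -1.66 to 1.20 for Gapdh, -0.14 to 0.28 for Hk1, -0.14 to 0.02 for Pfkfb3, -0.13 to 0.06 for Aldoc, -0.06 to 0.20 for Eno1, -0.34 to 0.14 for Pgls, -0.03 to 0.18 for Rpe and -0.10 to 0.04 for Tkt. They likewise ran from -0.04 to 0.05 for Tpi1, -0.06 to 0.05 for Pdhb, -0.02 to 0.03 for G6pdx and -0.11 to 0.17 for Rpia. Library totals and both FPKM scales gave -0.03 for Tpi1 and G6pdx and -0.01 for Rpia. Counts divided by 4 and the stricter filter gave -0.01 for Tpi1 and G6pdx. DESeq2, RLE factors and no pseudogenes gave -0.00 for Tpi1 and -0.01 for G6pdx, and no filter gave 0.00 for Pdhb. The cause was not tested. Ldhb had no value with counts divided by 4 or the stricter filter.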
